A study of Mus musculus with 19 samples.

Results

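The 33 genes described here encode ionotropic and metabotropic glutamate receptors and proteins of the postsynaptic density, the protein layer under the receiving membrane of an excitatory synapse. They were taken by symbol from a list of 33, and all 33 had a probe set of their own among the 19938 genes measured. They comprise 4 AMPA receptor subunits, 1 AMPA receptor auxiliary protein, 5 NMDA receptor subunits, 5 kainate receptor subunits, 6 metabotropic receptors, 9 scaffold proteins and 3 genes of calcium and calmodulin signalling. Glutamate released in the hippocampus opens AMPA receptors, which carry most of the fast excitatory current. It also opens NMDA receptors, whose calcium entry starts the changes in synaptic strength that underlie learning, while metabotropic receptors act more slowly through G proteins. Scaffold proteins hold these receptors opposite the release site, and the calcium- and calmodulin-dependent kinase CaMKII acts on them there.

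Expression was measured on Affymetrix arrays in whole hippocampus of C57BL/6J mice at 6 months of age, in 4 groups. APP-PS1 mice carry the transgene pair labelled APPSwe-PS1deltaE9, which gives high amyloid production, and were compared with wild-type littermates. From 3 months of age each genotype ate either chow with 375 ppm ibuprofen, an inhibitor of the cyclooxygenases, or the same chow without it. The groups held 5 arrays of APP-PS1 mice on ibuprofen, 5 of APP-PS1 mice on control chow, 5 of wild-type mice on ibuprofen and 4 of wild-type mice on control chow. The labels do not say that each array came from a separate animal, so the p-values measure the spread between these samples. All values are log2 expression on a normalised scale, differences are on that scale, and errors of means are SD over the arrays of a group. Levels in whole tissue cannot tell apart fewer cells of a type and less RNA per cell.

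The genotype labels were checked on App and Prnp. App averaged 13.59 ± 0.03 and 13.60 ± 0.02 in APP-PS1 mice on ibuprofen and control chow, against 13.25 ± 0.09 and 13.20 ± 0.03 in wild-type mice on those diets (n = 5, 5, 5 and 4). Prnp, the prion protein gene that supplies the transgene promoter in APP-PS1 mice, averaged 13.40 ± 0.04 and 13.38 ± 0.05 in APP-PS1 mice on ibuprofen and control chow, against 12.74 ± 0.07 and 12.71 ± 0.03 in wild-type mice on those diets. Array medians lay between 8.06 and 8.14, and all 7 listed markers of hippocampal pyramidal and dentate neurons, among them Slc17a7, Prox1 and Neurod6, lay above them. Each array's median correlation with the others was lowest, at 0.987, for wild-type ibuprofen replicate 5. Wild-type ibuprofen replicate 1 followed at 0.992, and then APP-PS1 ibuprofen replicate 4 and APP-PS1 control replicate 1, both at 0.994. Wild-type ibuprofen replicates 5 and 1 and APP-PS1 control replicate 1 were set aside together in an alternative fit, and are meant wherever 3 arrays are said to be set aside. The mean of 8 dentate granule cell markers lay between 9.31 and 10.06 in the APP-PS1 ibuprofen arrays, 9.87 and 10.26 in the APP-PS1 control arrays, 10.09 and 10.44 in the wild-type ibuprofen arrays, and 9.96 and 10.18 in the wild-type control arrays. Choroid plexus markers, of which 11 were measured, averaged between 7.87 and 10.62 over the arrays, and in every group the highest array was more than 1 unit above the lowest.

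None of the 33 genes passed an adjusted p of 0.05 in limma's moderated test with Benjamini-Hochberg adjustment over all genes, in any of 7 comparisons. The comparison of genotypes on ibuprofen chow held the smallest adjusted p. There 31 of 33 members were lower in APP-PS1 mice, with a median difference of -0.08, against a median of -0.05 over all genes, of which 37.8% were higher. Grm5, which encodes the metabotropic receptor mGluR5, had the smallest adjusted p of any member (0.0907, difference -0.16 ± 0.04 SE). In that comparison 54 genes passed the test, which is 0.271% of those tested. At an unadjusted p under 0.05, 8 members were lower and none higher, against 18.2% of all genes lower and 6.25% higher. The mean of the 7 hippocampal neuron markers was lowest in the APP-PS1 ibuprofen group (median 11.49, against 11.61 in APP-PS1 control, 11.70 in wild-type ibuprofen and 11.60 in wild-type control arrays). The mean of 7 striatal markers was highest there (median 9.65, against 9.41, 9.41 and 9.42 in the same order), and the part of either in the member differences was not tested in this comparison.

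On control chow the members were split between both directions. Their median difference was 0.01, with 17 of 33 higher in APP-PS1 mice, and over all genes the median was 0.02, with 57.9% higher. The test called 2 genes (0.01%) and no member, and 1 member, Gria1, was higher at an unadjusted p under 0.05, where 4.8% of all genes were. No member was lower by that rule, against 1.07% of all genes. Averaged over both diets, 27 of 33 members were lower in APP-PS1 mice, with a median of -0.04 against -0.01 over all genes, of which 45.1% were higher. That comparison called 5 genes (0.0251%) and no member, and at an unadjusted p under 0.05 it had 2 members lower and none higher, against 5.36% and 2.34% of all genes.

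The members lay mostly below 0 in APP-PS1 mice and above 0 in wild-type mice, and the first moved in both directions with single control arrays. In APP-PS1 mice 27 of 33 members were lower on ibuprofen, with a median difference of -0.03, against -0.02 over all genes, of which 41.8% were higher. Without APP-PS1 control replicate 1, 15 of 33 were higher, with a median of -0.0081. Without APP-PS1 control replicate 4, 1 of 33 was higher, with a median of -0.062. With arrays centred on their medians 1 was higher, against 35.1% of all genes. In wild-type mice 26 of 33 were higher, with a median of 0.05, against 0.05 over all genes, 66.8% of which were higher. No gene passed the test in either (0% in both). At an unadjusted p under 0.05, 3 members were lower in APP-PS1 mice (4.66% of all genes, 930 genes) and 6 were higher in wild-type mice (9.08%, 1810 genes). No member was higher in APP-PS1 mice (1.82%) or lower in wild-type mice (1.95%) by that rule. The count of 3 came to 0 without APP-PS1 control replicate 1 and with quantile normalisation, and the count of 6 came to 1 without wild-type control replicate 3. The count of 3 rose to 5 without APP-PS1 control replicate 4, and the count of 6 to 7 without APP-PS1 control replicate 1. With array weights each came to 9. The shares of all genes under these alternatives are not given here. Averaged over both genotypes 18 of 33 members were higher on ibuprofen, against 62.2% of all genes, and no gene passed the test. At an unadjusted p under 0.05 there was then 1 member higher (Grik2) and none lower, against 1.27% and 0.466% of all genes.

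The interaction asked whether the response to ibuprofen differed between genotypes, as the response in APP-PS1 mice minus that in wild-type mice. It was below 0 for 29 of 33 members, with a median of -0.10 against -0.07 over all genes, of which 35.6% were above 0. With the 3 arrays set aside the median of the members was -0.0337, and 9 were above 0. No gene passed the test (0%), and at an unadjusted p under 0.05 there were 5 members below 0, against 16% of all genes (3190 genes), and none above 0, against 4.5%. These 5 were Grm5, Gria1, Cacng8, Grin2a and Grin2b. Because comparisons that share a group share its arrays, a high or low group enters more than 1 of them. Among the comparisons within a genotype or diet, the APP-PS1 control and wild-type ibuprofen groups enter with opposite signs. The APP-PS1 ibuprofen and wild-type control groups each enter with the same sign.

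These counts changed when each array was weighted by its agreement with its group. Weighting called 8 members lower in APP-PS1 mice on ibuprofen chow (Cacng8, Camk2b, Gria1, Gria2, Grin2a, Grin2b, Grm5 and Homer2), while it called 1004 genes or 5.04% of all tested. For the interaction it called Gria1 (adjusted p = 0.0217) and Grm5 (adjusted p = 0.0348), and 174 genes in all. The genotype comparison on ibuprofen chow also called Grin2a, Grm5 and Shank2 without wild-type ibuprofen replicate 4, where it called 7.47% of all genes. Without APP-PS1 ibuprofen replicate 2 it called Grm5 alone among the members, and 2.23% of all genes.

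**Figure D1:**
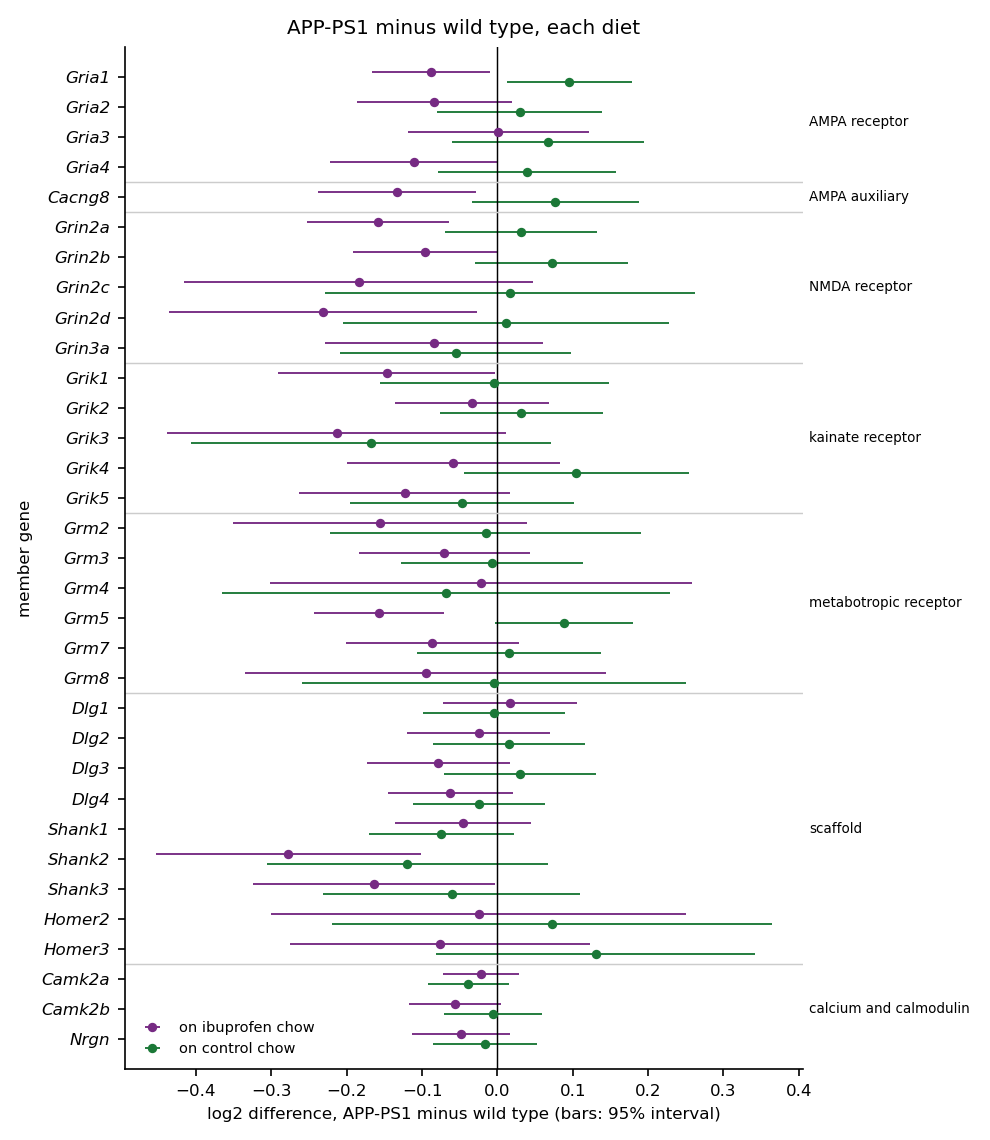
APP-PS1 minus wild type in log2 units (horizontal axis) for the 33 genes, ordered by role, on ibuprofen chow (purple) and on control chow (green); points are fitted differences and bars 95% intervals. On ibuprofen chow 31 of 33 points lie below 0, and on control chow 16 do.

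AMPA receptors are tetramers of the subunits GluA1 to GluA4, encoded by Gria1 to Gria4. All 4 were lower with ibuprofen in APP-PS1 mice and all 4 had an interaction below 0, none past the test. Of all genes, 41.8% were higher with ibuprofen in APP-PS1 mice and 35.6% had an interaction above 0. Gria1 read 12.98, 13.02, 12.91, 13.01 and 12.94 in APP-PS1 mice on ibuprofen, against 13.07, 13.08, 13.06, 12.99 and 13.05 in APP-PS1 mice on control chow. In wild-type mice Gria1 read 12.97, 13.11, 13.12, 13.09 and 13.01 on ibuprofen, against 12.96, 13.00, 12.83 and 13.03 on control chow. Within each genotype the diets overlapped, and the lowest array of all was wild-type control replicate 3. The ibuprofen difference was -0.08 ± 0.04 in APP-PS1 mice and 0.10 ± 0.04 in wild-type mice (SE; adjusted p = 0.716 and 0.432). Without wild-type control replicate 3 the wild-type difference was 0.06, and the genotype difference on control chow was 0.05. The interaction for Gria1 was -0.18 ± 0.06 (adjusted p = 0.208). Between genotypes Gria1 differed by -0.09 ± 0.04 on ibuprofen chow (adjusted p = 0.173) and by 0.10 ± 0.04 on control chow (adjusted p = 0.808).

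Gria4, which is prominent in fast-spiking interneurons, read 10.25, 10.33, 10.35, 10.34 and 10.24 in APP-PS1 mice on ibuprofen, against 10.52, 10.45, 10.43, 10.23 and 10.36 in those on control chow. The wild-type arrays for Gria4 read 10.41, 10.41, 10.49, 10.32 and 10.42 on ibuprofen, against 10.42, 10.34, 10.38 and 10.31 on control chow. Its APP-PS1 control arrays spanned the widest range, with replicate 1 highest and replicate 4 lowest, and the diets overlapped in both genotypes. The ibuprofen difference of Gria4 in APP-PS1 mice was -0.10 ± 0.05 (adjusted p = 0.716), and -0.06 with quantile normalisation. Gria2, whose subunit makes the channel nearly impermeable to calcium, averaged 12.31 ± 0.07 and 12.38 ± 0.06 in APP-PS1 mice on ibuprofen and control chow, against 12.40 ± 0.12 and 12.35 ± 0.06 in wild-type mice on those diets. Gria3 averaged 12.03 ± 0.03 and 12.11 ± 0.05 in APP-PS1 mice on ibuprofen and control chow, against 12.03 ± 0.17 and 12.04 ± 0.06 in wild-type mice on those diets. The wild-type ibuprofen SD of Gria3 was set by replicate 5, at 11.76, while the other 4 arrays lay between 11.98 and 12.19.

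Cacng8 encodes TARP gamma-8, an auxiliary protein that carries AMPA receptors to hippocampal synapses. It read 11.66, 11.92, 11.74, 11.78 and 11.74 in APP-PS1 mice on ibuprofen, against 12.03, 11.86, 11.83, 11.78 and 11.90 in APP-PS1 mice on control chow. In wild-type mice Cacng8 read 11.87, 11.90, 11.85, 11.87 and 12.01 on ibuprofen, against 11.75, 11.80, 11.80 and 11.86 on control chow. APP-PS1 ibuprofen replicate 2 stood above the other 4 arrays of its group and inside the control range. The genotype difference of Cacng8 on ibuprofen chow was -0.13 ± 0.05 (adjusted p = 0.151), and the interaction was -0.21 ± 0.07 (adjusted p = 0.208). With the 3 arrays named above set aside, that interaction was -0.14 ± 0.06 (adjusted p = 0.530).

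**Figure D2:**
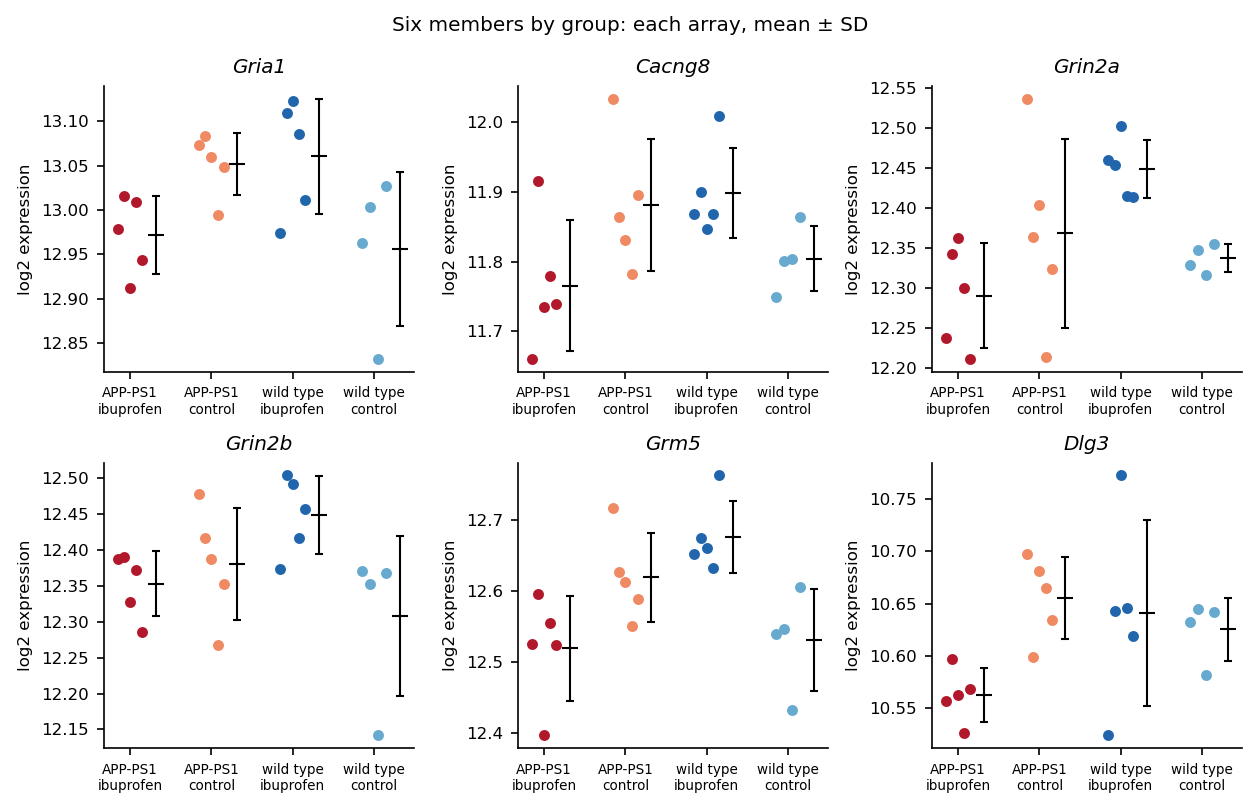
Log2 expression (vertical axes, each with its own range) of 6 members in every array, by group from left to right: APP-PS1 ibuprofen, APP-PS1 control, wild-type ibuprofen and wild-type control; bars are mean ± SD. Grm5 averages 12.52 and 12.62 in the APP-PS1 groups and 12.68 and 12.53 in the wild-type groups, in that order.

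NMDA receptors combine an obligatory subunit with GluN2 subunits, encoded by Grin2a to Grin2d, which set channel kinetics, or with GluN3 subunits, one of which is encoded by Grin3a. All 5 measured here were lower in APP-PS1 mice on ibuprofen chow and all 5 were higher with ibuprofen in wild-type mice, with no call. Of all genes, 37.8% were higher in the first comparison and 66.8% in the second. Grin2a, the subunit that predominates at mature synapses, read 12.24, 12.34, 12.36, 12.30 and 12.21 in APP-PS1 mice on ibuprofen, against 12.54, 12.36, 12.40, 12.21 and 12.32 in those on control chow. The wild-type arrays for Grin2a read 12.46, 12.45, 12.50, 12.41 and 12.41 on ibuprofen, against 12.33, 12.35, 12.32 and 12.36 on control chow. Every wild-type ibuprofen array lay above every wild-type control array and above every APP-PS1 ibuprofen array, while the APP-PS1 diets overlapped. The genotype difference of Grin2a on ibuprofen chow was -0.16 ± 0.05 (adjusted p = 0.111), and on control chow it was 0.03 ± 0.05 (adjusted p = 0.976). Ibuprofen gave -0.08 ± 0.05 in APP-PS1 mice and 0.11 ± 0.05 in wild-type mice, with an interaction of -0.19 ± 0.07 (adjusted p = 0.716, 0.432 and 0.208).

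Grin2b, the subunit that predominates early in development and binds CaMKII, read 12.39, 12.39, 12.33, 12.37 and 12.29 in APP-PS1 mice on ibuprofen, against 12.48, 12.42, 12.39, 12.27 and 12.35 in APP-PS1 mice on control chow. In wild-type mice Grin2b read 12.37, 12.50, 12.49, 12.42 and 12.46 on ibuprofen, against 12.37, 12.35, 12.14 and 12.37 on control chow. The wild-type diets did not overlap, but only just, since ibuprofen replicate 1 and the highest control arrays both read 12.37, and control replicate 3 stood far below its group. The ibuprofen difference in wild-type mice was 0.14 ± 0.05 (adjusted p = 0.432), or 0.08 without control replicate 3, and the interaction was -0.17 ± 0.07 (adjusted p = 0.212). Grin2d, a subunit of slow channels found mainly in interneurons, read 8.66, 8.76, 8.59, 8.59 and 8.52 in APP-PS1 mice on ibuprofen, against 8.97, 8.64, 8.69, 8.76 and 9.21 in wild-type mice on ibuprofen. On control chow Grin2d read 8.99, 8.65, 8.65, 8.51 and 8.61 in APP-PS1 mice, against 8.63, 8.59, 8.80 and 8.65 in wild-type mice. Its 3 highest arrays were wild-type ibuprofen replicates 5 and 1 and APP-PS1 control replicate 1, the 3 arrays set aside in the alternative fit. The genotype difference of Grin2d on ibuprofen chow was -0.23 ± 0.10 (adjusted p = 0.173). It was -0.14 without wild-type ibuprofen replicate 5 and -0.07 with the 3 arrays set aside.

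Grin2c followed the same arrays: those 3 read 9.84, 9.63 and 9.72, and its group means were 9.29 ± 0.14 and 9.31 ± 0.24 in APP-PS1 mice on ibuprofen and control chow, against 9.47 ± 0.25 and 9.29 ± 0.06 in wild-type mice on those diets. Grin3a averaged 10.11 ± 0.14 and 10.11 ± 0.10 in APP-PS1 mice on ibuprofen and control chow, against 10.20 ± 0.11 and 10.17 ± 0.05 in wild-type mice on those diets.

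Kainate receptors, the third ionotropic family, modulate release and excitability, and in the hippocampus are best known at the mossy fibre synapses onto CA3 cells. All 5 subunit genes were lower in APP-PS1 mice on ibuprofen chow, again with no call, and the median of the 5 differences was -0.12. Over all genes the median was -0.05, with 37.8% higher. Grik4, which encodes a high-affinity subunit enriched in CA3, read 11.39, 11.51, 11.51, 11.55 and 11.46 in APP-PS1 mice on ibuprofen, against 11.73, 11.53, 11.46, 11.24 and 11.39 in those on control chow. The wild-type arrays for Grik4 read 11.69, 11.43, 11.51, 11.49 and 11.59 on ibuprofen, against 11.36, 11.35, 11.29 and 11.46 on control chow. The wild-type groups overlapped only through ibuprofen replicate 2 and control replicate 4. The wild-type ibuprofen difference was 0.18 ± 0.07 (adjusted p = 0.432), or 0.10 with array weights, and averaged over genotypes it was 0.09 ± 0.05 (adjusted p = 0.99995).

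Grik2, a channel-forming subunit, read 11.19, 11.16, 11.01, 11.16 and 11.20 in APP-PS1 mice on ibuprofen, against 11.15, 11.17, 11.07, 11.03 and 11.09 in APP-PS1 mice on control chow. In wild-type mice Grik2 read 11.12, 11.16, 11.32, 11.16 and 11.13 on ibuprofen, against 11.11, 11.03, 11.03 and 11.11 on control chow. The wild-type diets did not overlap, with ibuprofen replicate 3 well above the rest. The ibuprofen difference of Grik2 was 0.11 ± 0.05 in wild-type mice (adjusted p = 0.432) and 0.04 ± 0.05 in APP-PS1 mice (adjusted p = 0.783), and averaged over genotypes it was 0.08 ± 0.04 (adjusted p = 0.99995). Grik3 read 10.16, 10.26, 10.42, 9.88 and 9.99 in APP-PS1 mice on ibuprofen, against 10.03, 10.29, 10.38, 10.33 and 10.73 in wild-type mice on ibuprofen. On control chow Grik3 read 10.39, 10.23, 10.17, 10.21 and 10.29 in APP-PS1 mice, against 10.38, 10.34, 10.69 and 10.30 in wild-type mice. All groups overlapped, and averaged over diets the genotype difference was -0.19 ± 0.08 (adjusted p = 0.597). Grik1 and Grik5 differed by -0.15 ± 0.07 and -0.12 ± 0.07 between genotypes on ibuprofen chow (adjusted p = 0.199 and 0.247).

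Metabotropic receptors fall into a postsynaptic group, here Grm5, and groups that mostly restrain release, here Grm2, Grm3, Grm4, Grm7 and Grm8. Grm5 couples to phospholipase C and is tied to the postsynaptic density by Homer proteins, and in studies of amyloid it is known as a coreceptor for amyloid-beta oligomers bound to the prion protein. It read 12.53, 12.60, 12.40, 12.55 and 12.52 in APP-PS1 mice on ibuprofen, against 12.72, 12.63, 12.61, 12.55 and 12.59 in APP-PS1 mice on control chow. In wild-type mice Grm5 read 12.65, 12.67, 12.66, 12.63 and 12.76 on ibuprofen, against 12.54, 12.55, 12.43 and 12.61 on control chow. Every wild-type ibuprofen array lay above every wild-type control array and every APP-PS1 ibuprofen array, while the APP-PS1 diets overlapped. On ibuprofen chow the genotype difference was -0.16 ± 0.04 with a 95% interval of -0.24 to -0.07 (adjusted p = 0.0907), and on control chow it was 0.09 ± 0.04 (adjusted p = 0.854), or 0.06 without wild-type control replicate 3.

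The ibuprofen difference of Grm5 was -0.10 ± 0.04 in APP-PS1 mice (adjusted p = 0.716) and 0.15 ± 0.04 in wild-type mice (adjusted p = 0.432). Its interaction, -0.25 ± 0.06 with a 95% interval of -0.37 to -0.12 (adjusted p = 0.208), had the smallest p of the 33. With the 3 arrays set aside the interaction of Grm5 was -0.20 ± 0.06 (adjusted p = 0.495). With the dentate granule marker mean as a covariate it was -0.15 ± 0.07 (adjusted p = 0.920), and the genotype difference on ibuprofen chow was -0.06 ± 0.06 (adjusted p = 0.999). With the same covariate the genotype difference on ibuprofen chow was -0.05 ± 0.08 for Cacng8 but -0.20 ± 0.07 for Grin2a (adjusted p = 0.999 for both). The median over the 33 members was then -0.11, with 0 of 33 above 0. The median and share over all genes in that fit are not given here, so a shift of all genes cannot be told apart from one of the members. The marker mean was lowest in the APP-PS1 ibuprofen group, as given above. Its APP-PS1 and wild-type arrays did not overlap on ibuprofen chow, so marker mean and genotype cannot be told apart in that comparison.

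Grm7 read 10.63, 10.63, 10.78, 10.52 and 10.62 in APP-PS1 mice on ibuprofen, against 10.76, 10.65, 10.63, 10.49 and 10.63 in those on control chow. The wild-type arrays for Grm7 read 10.80, 10.67, 10.71, 10.69 and 10.75 on ibuprofen, against 10.70, 10.53, 10.60 and 10.63 on control chow. Both pairs of groups overlapped, and averaged over genotypes the ibuprofen difference was 0.06 ± 0.04 (adjusted p = 0.99995). Grm2, Grm3, Grm4 and Grm8 had ibuprofen differences between -0.10 and -0.01 in APP-PS1 mice and between -0.06 and 0.04 in wild-type mice. Grm4 and Grm8 had some of the widest spreads among the members, and in both the highest array of all was wild-type ibuprofen replicate 5, at 9.39 and 9.04.

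**Figure D3:**
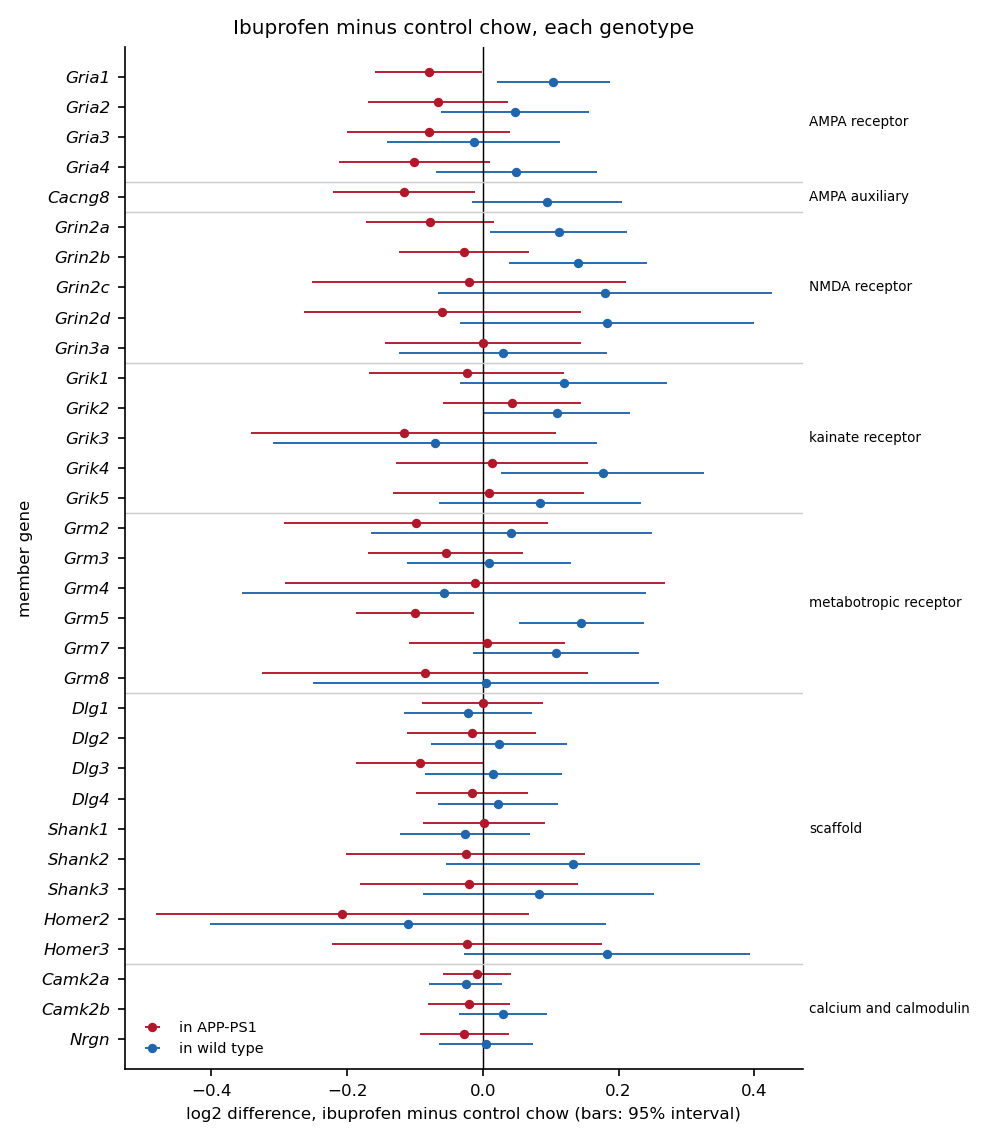
Ibuprofen minus control chow in log2 units (horizontal axis) for the 33 genes, ordered by role, in APP-PS1 mice (red) and wild-type mice (blue); points are fitted differences and bars 95% intervals, not adjusted for the number of genes. In APP-PS1 mice 27 points lie below 0, and in wild-type mice 26 lie above it.

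Scaffolds of the Dlg family (Dlg4 encodes PSD-95, Dlg3 SAP102, Dlg2 PSD-93 and Dlg1 SAP97) bind NMDA and AMPA receptor complexes, Shank proteins form the layer beneath, and Homer proteins link Shank to group I metabotropic receptors. Dlg3 read 10.56, 10.60, 10.56, 10.53 and 10.57 in APP-PS1 mice on ibuprofen, against 10.70, 10.60, 10.68, 10.67 and 10.63 in those on control chow. The wild-type arrays for Dlg3 read 10.52, 10.64, 10.77, 10.65 and 10.62 on ibuprofen, against 10.63, 10.64, 10.58 and 10.64 on control chow. The APP-PS1 diets met at 10.60 without overlapping, and the wild-type ibuprofen arrays spanned the whole control range. The ibuprofen difference in APP-PS1 mice was -0.09 ± 0.05 (adjusted p = 0.716), or -0.05 with quantile normalisation. Dlg4 averaged 12.72 ± 0.07 and 12.73 ± 0.07 in APP-PS1 mice on ibuprofen and control chow, against 12.78 ± 0.06 and 12.76 ± 0.04 in wild-type mice on those diets. Over the comparisons within a genotype or diet, the differences of Dlg1, Dlg2 and Dlg4 stayed between -0.06 and 0.02.

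Homer2 read 10.66, 10.74, 10.66, 10.56 and 10.65 in APP-PS1 mice on ibuprofen, against 10.84, 10.76, 10.92, 10.86 and 10.91 in APP-PS1 mice on control chow. In wild-type mice Homer2 read 10.88, 10.96, 10.89, 10.78 and 9.88 on ibuprofen, against 10.91, 10.78, 10.83 and 10.65 on control chow. The APP-PS1 diets did not overlap, and wild-type ibuprofen replicate 5 lay far below every other array. That array widened the error of all comparisons: the ibuprofen difference was -0.21 ± 0.13 in APP-PS1 mice and -0.11 ± 0.14 in wild-type mice (adjusted p = 0.716 and 0.685). With the 3 arrays set aside they were -0.21 ± 0.05 and 0.09 ± 0.06 (adjusted p = 0.435 and 0.999), so the wild-type sign turned. Homer3 averaged 10.26 ± 0.06 and 10.28 ± 0.22 in APP-PS1 mice on ibuprofen and control chow, against 10.33 ± 0.22 and 10.15 ± 0.08 in wild-type mice on those diets, and its 3 highest arrays were again the 3 named above.

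Shank2 read 9.94, 10.07, 9.93, 9.67 and 9.87 in APP-PS1 mice on ibuprofen, against 10.40, 10.02, 10.13, 10.01 and 10.30 in wild-type mice on ibuprofen. On control chow Shank2 read 10.05, 9.91, 9.98, 9.76 and 9.90 in APP-PS1 mice, against 10.14, 9.94, 10.17 and 9.91 in wild-type mice. The groups overlapped on both diets, and the 2 highest arrays were wild-type ibuprofen replicates 1 and 5. The genotype difference on ibuprofen chow was -0.28 ± 0.08 (adjusted p = 0.125), and averaged over diets it was -0.20 ± 0.06 (adjusted p = 0.400), the smallest p of the 33 there. Without the 3 arrays the first was -0.16 ± 0.08 (adjusted p = 0.520), and with the mean of all Shank2 probe sets both were -0.01.

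Shank3 read 10.21, 10.47, 10.28, 10.17 and 10.23 in APP-PS1 mice on ibuprofen, against 10.61, 10.33, 10.30, 10.36 and 10.58 in wild-type mice on ibuprofen. On control chow Shank3 read 10.48, 10.30, 10.26, 10.13 and 10.29 in APP-PS1 mice, against 10.26, 10.32, 10.52 and 10.32 in wild-type mice. These groups overlapped, with a difference averaged over diets of -0.11 ± 0.06 (adjusted p = 0.659). Shank1 read 11.77, 11.87, 11.84, 11.74 and 11.71 in APP-PS1 mice on ibuprofen, against 11.85, 11.86, 11.86, 11.85 and 11.73 in wild-type mice on ibuprofen. On control chow Shank1 read 11.81, 11.87, 11.77, 11.72 and 11.74 in APP-PS1 mice, against 11.78, 11.81, 11.95 and 11.88 in wild-type mice. The control-chow groups overlapped, with a difference of -0.07 ± 0.05 (adjusted p = 0.916), or -0.04 without wild-type control replicate 3.

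The genes of calcium and calmodulin signalling had the tightest levels of the 33. Camk2a, the alpha subunit of CaMKII, read 13.75, 13.83, 13.78, 13.81 and 13.80 in APP-PS1 mice on ibuprofen, against 13.79, 13.80, 13.81, 13.78 and 13.82 in those on control chow. The wild-type arrays for Camk2a read 13.81, 13.86, 13.83, 13.84 and 13.73 on ibuprofen, against 13.81, 13.84, 13.85 and 13.86 on control chow. All groups overlapped, and the genotype difference on control chow was -0.04 ± 0.03 (adjusted p = 0.932). Camk2b, the beta subunit, averaged 13.37 ± 0.02 and 13.39 ± 0.02 in APP-PS1 mice on ibuprofen and control chow, against 13.43 ± 0.04 and 13.40 ± 0.08 in wild-type mice on those diets. Nrgn encodes neurogranin, which holds calmodulin at low calcium, and averaged 12.62 ± 0.05 and 12.65 ± 0.02 in APP-PS1 mice on ibuprofen and control chow, against 12.67 ± 0.04 and 12.67 ± 0.04 in wild-type mice on those diets. For Camk2a, with a pooled SE of 0.02 or 0.03, the 95% interval of the ibuprofen difference was -0.06 to 0.04 in APP-PS1 mice and -0.08 to 0.03 in wild-type mice.

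Few members separated the groups without overlap. On ibuprofen chow Grin2a and Grm5 were lower in every APP-PS1 array than in every wild-type array, where 2.06% of all genes were, and no member was higher without overlap (0.231%). With ibuprofen in APP-PS1 mice Dlg3 and Homer2 were lower without overlap (2.27% of all genes) and no member was higher (0.507%). In wild-type mice Grin2a, Grin2b, Grik2 and Grm5 were higher without overlap (1.94%) and no member was lower (0.301%). On control chow no member separated the genotypes, where 2.94% of all genes were higher and 0.903% lower. With quantile normalisation Grin2a alone of the members stayed without overlap in wild-type mice (1.54% of all genes) and Homer2 alone in APP-PS1 mice (1.26%). With the mean of all probe sets of a gene, Dlg3 and not Homer2 stayed without overlap in APP-PS1 mice (2.23%). With the 3 arrays set aside 11 members were lower without overlap in APP-PS1 mice on ibuprofen chow (3.18% of all genes): Gria1, Gria2, Gria3, Grin2a, Grin2b, Grm5, Dlg2, Dlg3, Homer2, Camk2a and Camk2b. With no array set aside, 2 members and 2.06% of all genes were lower without overlap in that comparison. Wild-type ibuprofen replicates 1 and 5 were among those set aside, which left fewer arrays to compare for every gene. The part of this in the rise among the members was not tested. Without replicate 1 alone 5 members were lower without overlap (2.6% of all genes), and without replicate 5 alone 3 were (2.29%).

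The arrays of a group also differed together across members. The median within-group SD of the 33 genes was 0.0812, against 0.123 over all genes, and it was largest for Homer2 and Grm4, at 0.24 each, and smallest for Camk2a, at 0.03. APP-PS1 control replicate 1 was the highest of its group for 21 of 33 members and for 53.4% of all genes. APP-PS1 control replicate 4 was the lowest of its group for 23 members and for 31.5% of all genes. APP-PS1 ibuprofen replicate 2 was the highest for 16 members, against 28.6% of all genes, and wild-type ibuprofen replicate 5 for 12 members, against 51.7%.

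**Figure D4:**
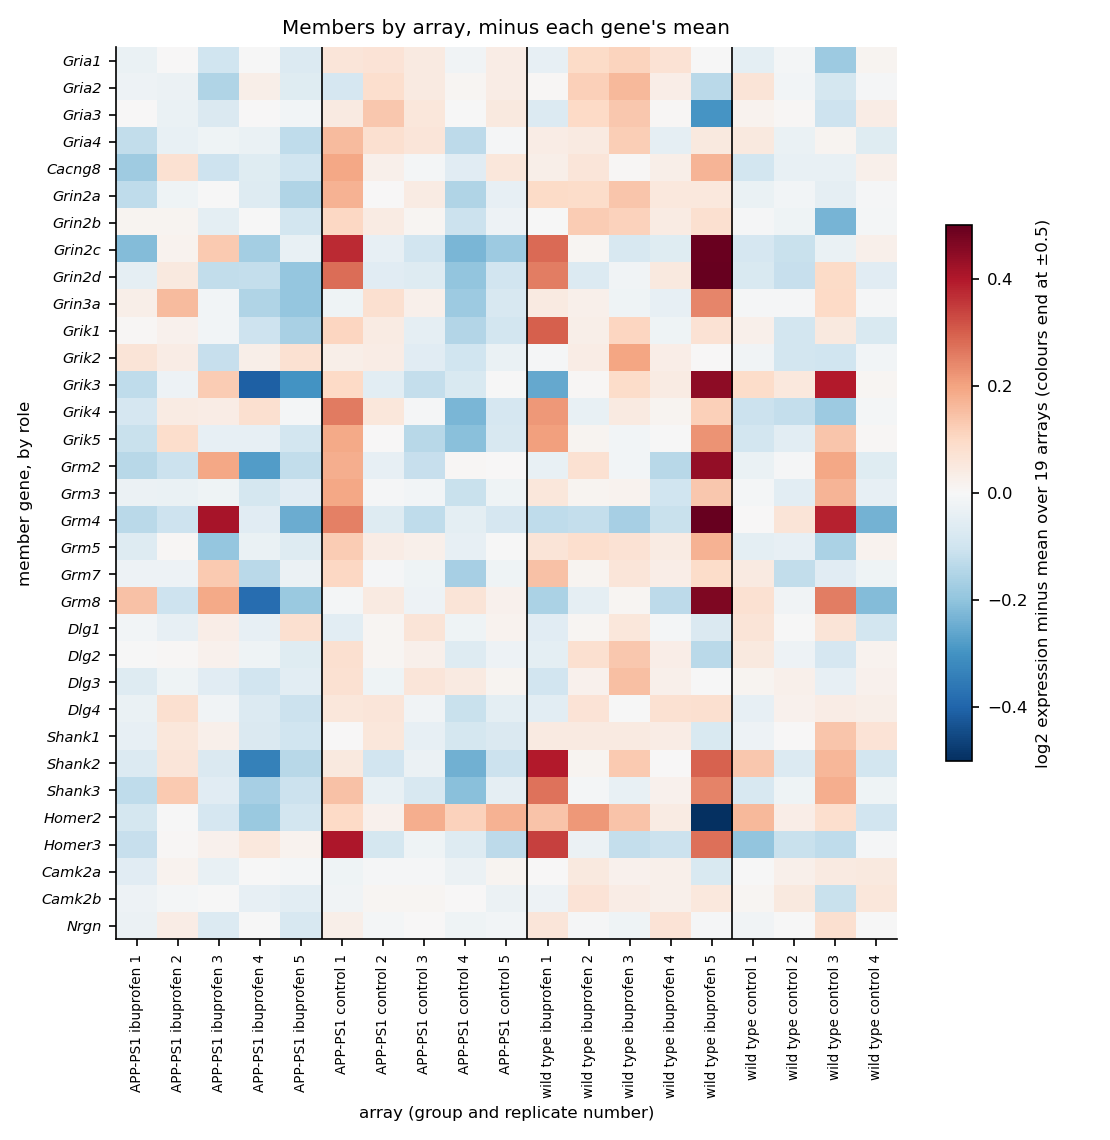
Log2 expression of the 33 genes (rows, by role) in 19 arrays (columns, by group), minus each gene's mean over the arrays; red is above and blue below the mean, and colours end at 0.5 either way. Grin2c, Grin2d and Homer3 are red in APP-PS1 control replicate 1 and wild-type ibuprofen replicates 1 and 5, and Homer2 is blue in the last.

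Members were also set against marker means of 3 tissues or cell types, in a fit that kept the group means. On the choroid plexus mean 399 genes (2% of all) had a slope past the test and no member did. Shank1 came nearest, at -0.05 log2 units per unit of the marker mean (adjusted p = 0.174). On the dentate granule mean 15 genes (0.0752%) and no member passed. On the mean of 7 striatal markers 15 members passed, 12 with a slope above 0 and 3 below, against 24.2% of all genes. The steepest called slopes were those of Grm4 and Grin2c, at 1.48 ± 0.40 and 1.47 ± 0.28 (adjusted p = 0.0145 and 0.00321), and the 3 below 0 were Gria1, Gria2 and Gria3. No member and no gene passed that test without the 3 arrays, and no member did after quantile normalisation.

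Of 54 other genes of the glutamatergic synapse, 48 were measured and none passed the same limma test in any comparison with the settings of the report. Their median difference was -0.09 between genotypes on ibuprofen chow and -0.09 for the interaction. On ibuprofen chow the smallest adjusted p-values were 0.0501 for Shisa7, an AMPA receptor auxiliary protein (-0.28 ± 0.06), and 0.0520 for Grid1, a delta-type receptor (-0.30 ± 0.07). Lrrtm1, a postsynaptic adhesion protein, followed, at -0.23 ± 0.06 (adjusted p = 0.0936). Over the alternatives the limma adjusted p in this comparison ran from 0.00137 to 0.999 for Shisa7, 0.00440 to 0.999 for Grid1 and 0.00658 to 0.999 for Lrrtm1. The genes called there ran from 2 to 1490. With ibuprofen in APP-PS1 mice the smallest p-values belonged to Lrrtm1 (-0.15 ± 0.06), Gsg1l (0.25 ± 0.10) and Slc17a6 (-0.39 ± 0.16), all with an adjusted p of 0.716, and Gsg1l was 0.13 without APP-PS1 ibuprofen replicate 3. In wild-type mice they belonged to Lrrtm1 (0.20 ± 0.06), Baiap2 (0.18 ± 0.06) and Nptx1 (0.13 ± 0.05), all with an adjusted p of 0.432. For the interaction Lrrtm1 (-0.35 ± 0.09) and Slc1a1, a neuronal glutamate transporter (-0.32 ± 0.10), came first and Nlgn3 (-0.27 ± 0.10) next, all with an adjusted p of 0.208. Between genotypes on control chow the leading genes were Slc1a1 (0.22 ± 0.07, adjusted p = 0.767), Lrrtm2 (0.12 ± 0.05, adjusted p = 0.814) and Shisa7 (-0.14 ± 0.06, adjusted p = 0.835). Without wild-type control replicate 3 the first was 0.12 and the second 0.07. Averaged over diets they were Shisa7 (-0.21 ± 0.04, adjusted p = 0.152), Dlgap1, a scaffold that binds PSD-95 (-0.11 ± 0.03, adjusted p = 0.349), and Grid1 (-0.17 ± 0.05, adjusted p = 0.349). Averaged over genotypes the ibuprofen differences with the smallest p belonged to Slc17a6 (-0.33 ± 0.12), Nptx1 (0.08 ± 0.03) and Baiap2 (0.08 ± 0.04), all with an adjusted p of 0.99995.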

How the data were processed

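The deposited table holds log2 values per probe set (35556 probe sets, 19 arrays), made by the authors with RMA in Partek 6.5 per the submitters' processing notes; the annotation build is not given in the sources used here. The values are array intensities, to which no read depth applies, and each group held 4 or 5 arrays. Genes were measured by the brightest probe set annotated to that symbol alone, 19938 genes in all, and no filter on low values was applied. Limma 3.58.1 (R 4.3.3) fitted 4 group means jointly (19 arrays, residual degrees of freedom 15, prior variance following intensity), and p-values were adjusted by Benjamini-Hochberg over all genes for each of 7 contrasts, called under 0.05. The model was tested on simulated data. The members, marker lists and alternatives were chosen with earlier results of these data known. All members are named, and per-array values are given for the 5 members with the smallest p in each comparison. Of the other synapse genes the 3 with the smallest p are named, with fitted differences and SE. Alternatives covered scaling, filters, fit options, covariates and left-out arrays. Same-numbered arrays of different groups correlated between -0.27 and 0.60 in their deviations, and 17 of 27 pairs exceeded 0.1. Their median was 0.13, against -0.05 for arrays of other numbers, and 10 of 19 arrays correlated best with their own number. The labels do not say that the numbers pair samples. The main fit did not use them, and a replicate block was fitted as an alternative.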

Additional observations from a re-analysis of the deposited data

Results flagged for a closer look

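In 12 of 132 sets of 4 or 5 arrays (33 genes in 4 groups), 1 array lay far from the others of its group by Dixon's criterion, which chance gives in about 1 in 20. Wild-type ibuprofen replicate 5 was far above its group for Grm4 (9.39) and Grm8 (9.04) and far below it for Shank1 (11.73) and Homer2 (9.88). Wild-type ibuprofen replicate 3 was high for Grik2 (11.32). APP-PS1 ibuprofen replicate 3 was low for Grik2 (11.01), and APP-PS1 ibuprofen replicate 1 was low for Homer3 (10.14). APP-PS1 control replicate 1 was high for Grm4 (9.14) and Homer3 (10.66). Wild-type control replicate 3 was low for Grin2b (12.14) and high for Grin3a (10.25) and Nrgn (12.73).

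For Gria1, Grin2a and Grm5 every APP-PS1 ibuprofen array lay below the mean of APP-PS1 control arrays. For the same genes every wild-type ibuprofen array lay above the mean of wild-type control arrays. The share of all genes meeting this rule was not computed, so whether members met it more often is not known. Of all genes, 41.8% were higher with ibuprofen in APP-PS1 mice and 66.8% in wild-type mice. The interaction was -0.18 for Gria1, -0.19 for Grin2a and -0.25 for Grm5, with an adjusted p of 0.208 in limma for each, so the difference between genotypes did not pass the test.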

How the results depend on the processing

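No member was called in the 7 comparisons with the settings of the report, nor under the alternatives listed here, except 8 members between genotypes on ibuprofen chow and 2 for the interaction with array weights, and up to 3 on ibuprofen chow when single arrays were left out. Genes called between genotypes on ibuprofen chow (54) came to 128 without the dimmest 0.25 of genes, 91 with robust empirical Bayes, 1004 with array weights, 5 with only the compared groups, 197 with the replicate block, 2 with the dentate covariate and 33 without the 3 arrays. Array weights also gave 8 genes between genotypes on control chow, 108 and 2 for ibuprofen in APP-PS1 and wild-type mice, 174 for the interaction and 342 for genotype averaged over diets, which gave 8 with quantile normalisation and 8 without the 3 arrays. The replicate block gave 4 genes on control chow and called no member in the 7 comparisons. The members' median interaction was -0.0337 without the 3 arrays. For the choroid plexus slope the genes called (399) were 141 with the replicate block and 260 without the 3 arrays. Members called there were 1 with the mean of probe sets, against 404 genes or 2.03% of all. They were 2 with array weights, against 487 genes or 2.44%. The dentate slope (15 genes) gave 9 with arrays centred, 42 with array weights, 3 with the replicate block and 39 without the 3 arrays. The striatal slope (4822 genes, 15 members) gave 60 genes and 0 members with quantile normalisation, 1 and 0 with array weights, 434 and 3 with the replicate block, and 0 and 0 without the 3 arrays. Leaving out 1 array at a time gave 2 to 4 genes between genotypes on control chow, 10 to 1490 genes and 0 to 3 members on ibuprofen chow, 0 to 3 genes for ibuprofen in APP-PS1 mice, 0 to 13 for the interaction, 3 to 52 for genotype averaged over diets, 222 to 470 for the choroid slope, 0 to 20 for the dentate slope, and 1280 to 6522 genes with 6 to 15 members for the striatal slope. For the 71 gene results with the smallest p in each comparison or slope, 2188 values were computed under alternatives, of which 2132 kept direction and side of the threshold, 36 newly passed it, 18 lost it and 2 reversed (the turn of Homer2 in wild-type mice, given above, lies outside these 71): the dentate slope of Cacng8 ran between -0.000612 (without APP-PS1 ibuprofen replicate 2) and 0.228 over the left-out arrays, and that of Grm4 between -0.685 and 0.0755 (without APP-PS1 ibuprofen replicate 3). Quantile normalisation moved the all-gene share higher in APP-PS1 mice on ibuprofen chow to 47.6%, and 5 of 33 members were then higher. The causes were not tested.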

Other observations

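The probe sets of 2 members disagreed. The Homer2 probe set not used above gave a difference of -0.25 ± 0.06 (SE), APP-PS1 minus wild type on ibuprofen chow, while the one used gave -0.02 ± 0.14. The 2 Shank2 probe sets not used above gave 0.18 ± 0.13 and 0.08 ± 0.18 in that comparison, while the one used gave -0.28 ± 0.09, in a fit over all probe sets. With ibuprofen the unused Homer2 probe set gave -0.10 ± 0.06 in APP-PS1 mice and 0.15 ± 0.06 in wild-type mice. The Homer2 probe set used gave -0.21 ± 0.14 and -0.11 ± 0.15 in the same fit. Averaged over both genotypes, the 5 smallest p-values for ibuprofen belonged to Grik2, Grik4, Grin2b (0.06 ± 0.03), Homer2 (-0.16 ± 0.10) and Grm7, all with an adjusted p of 0.99995. The value of Homer2 was -0.06 without wild-type ibuprofen replicate 5, and that of Grin2b was 0.03 without wild-type control replicate 3. Averaged over both diets, the genotype differences of Grin2a and Shank1 were both -0.06 ± 0.03 (adjusted p = 0.667 and 0.671).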
